A study of Mus musculus with 15 samples.

Results

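Transcripts that mark mast cells were read in 15 RNA-seq libraries of macrophages sorted from mouse ear skin. The set holds 10 genes, found by their exact names among the 42454 entries of the deposited table. By role they are the granule proteases Cpa3, Cma1, Mcpt4 and Tpsb2, the histamine-forming enzyme gene Hdc, the receptor genes Kit, Ms4a2, Fcer1a and Mrgprb2, and the transcription factor gene Gata2. The set was chosen by measured values, namely the levels of mast cell genes in these same 15 libraries, so the levels are a description and none of the 10 is given a test. The values had no threshold.

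Mast cells are resident immune cells of connective tissue that lie along vessels and nerves in the skin and carry granules filled with histamine, proteases and heparin. They depend on the receptor KIT, bind IgE through the high-affinity Fc receptor, and in mouse skin sense peptides through MRGPRB2. Connective tissue mast cells store carboxypeptidase A3, chymases and tryptases, whereas mucosal mast cells store other chymases. The gates of this study were set for macrophages.

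All libraries came from 3 mice that carried Cx3cr1 alleles with an inducible Cre (creERT2) and GFP, together with 1 R26 allele for Cre-dependent tdTomato; GFP and Cre therefore follow Cx3cr1 activity. Every mouse received tamoxifen 3 weeks before the left ear was punched, skin was taken 10 days after the punch, and the right ear was left unpunched. CD11b+ CD64+ Lin- cells were sorted into 5 groups of 3 libraries. IM and injIM are interstitial macrophages (GFP-/Tomato- gate) of the unpunched and punched ear, sNAM and injNAM are resident nerve-associated macrophages (GFP+/Tomato+ gate) of the unpunched and punched ear, and recNAM are nerve-associated macrophages recruited after the punch (GFP+/Tomato- gate). Groups were taken from the titles, because the reporter field of the labels disagrees with them for injIM and sNAM. The sources used here do not give the animals' age, the lineage markers or the mouse each library came from, so the spread between libraries may be partly technical.

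Values are normalized counts: the authors scaled the reads of each library by a single factor. Means are given ± SD over n = 3 libraries. IM, injIM and recNAM libraries held 20.4 to 23.8 M reads (M, 10 to the power of 6) and resembled each other within groups, with replicate correlations across genes of 0.934 to 0.983 on the log scale. The sNAM and injNAM libraries stood apart, with correlations of 0.644 to 0.776. Replicate 2 of sNAM had the lowest depth, 5.64 M reads, and 25.8% of the 8656 tested genes had no read there, against at most 0.751% in IM, injIM and recNAM. The ratio of sums and the counts of transcripts that involve sNAM are therefore given with and without replicate 2. Summed over 10 macrophage markers, every library was high, from 11365 to 18561 CPM (reads of a gene in 10 to the power of 6 reads). In bulk libraries, fewer mast cells and less RNA per mast cell cannot be told apart, and whether mast cells or macrophages held the RNA was not tested.

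The sequences upstream of 3 of the genes are shown as examples of a protease and a receptor role. They are a pair of chymase genes from 1 gene cluster and the receptor gene Mrgprb2, the genes of the set with the highest and the lowest levels per kb in IM. All 10 transcripts of the set were lower in injIM than in IM, so this order does not set the 3 apart. A link between the motif and the levels was not tested. Each is the 250 bases before the start site on the minus strand of GRCm38.p6, from RefSeq, at chr14:55944676-55944925 for Cma1, chr14:56062311-56062560 for Mcpt4 and chr7:48558087-48558336 for Mrgprb2. Capitals mark the motif GATAA, bound by GATA factors, read on either strand.
Cma1: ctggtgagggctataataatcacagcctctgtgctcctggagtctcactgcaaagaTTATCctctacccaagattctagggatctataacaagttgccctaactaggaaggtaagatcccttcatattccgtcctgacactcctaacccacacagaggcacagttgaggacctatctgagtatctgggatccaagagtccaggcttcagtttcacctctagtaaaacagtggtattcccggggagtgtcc
Mcpt4: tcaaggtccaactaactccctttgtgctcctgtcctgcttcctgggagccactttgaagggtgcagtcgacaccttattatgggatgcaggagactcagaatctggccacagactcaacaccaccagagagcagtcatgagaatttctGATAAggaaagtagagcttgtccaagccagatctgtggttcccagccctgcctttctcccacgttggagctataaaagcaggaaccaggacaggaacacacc
Mrgprb2: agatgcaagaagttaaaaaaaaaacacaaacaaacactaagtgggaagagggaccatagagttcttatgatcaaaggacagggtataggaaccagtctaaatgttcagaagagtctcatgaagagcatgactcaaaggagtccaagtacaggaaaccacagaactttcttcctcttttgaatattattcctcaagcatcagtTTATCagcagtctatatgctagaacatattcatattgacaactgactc
The motif starts 194, 102 and 48 bases before the start sites of Cma1, Mcpt4 and Mrgprb2. Of the 9 genes of the set with a listed promoter, 6 held GATAA in this window, against 22.6% of 32851 promoters of the same length. These were the 3 shown with Cpa3, Ms4a2 and Fcer1a, while Hdc, Kit and Gata2 held none. The units are unlike: the set was counted by gene, with any listed promoter of it, and all others by promoter. Kit and Gata2 have more than 1 listed promoter. The general E-box CANNTG was in 5 of the 9 and in 66.2% of all, the E-box CACATG in 1 of the 9 and in 12.3% of all, and CACGTG in 0 of the 9 and in 6.02% of all. The last 2 are forms of CANNTG, and all were searched on both strands. A match is a run of letters and not a measured site.

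In IM and injIM the granule protease transcripts were the most abundant of the set per kb of exon, and all 4 were lower in every interstitial library of the punched ear than in every one of the unpunched ear. Cpa3, which encodes the exopeptidase carboxypeptidase A3 (chr3:20215616-20242209), read 2357, 1879 and 2553 normalized counts in IM and 981, 844 and 904 in injIM. Its means of 2263 ± 347 and 909.7 ± 68.4 (SD, n = 3) differed 2.49-fold. In recNAM Cpa3 read 984, 297 and 785, which overlaps injIM and lies below IM. The resident nerve-associated libraries did not form a level at all: sNAM read 0, 5324 and 220.2, and injNAM read 0, 0.981 and 4.28. Replicate 2 of sNAM thus held more Cpa3 than any IM library, while injNAM held next to none.

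Cma1 encodes a chymase (chr14:55941451-55944675). It read 2471, 1880.0 and 2190.4 in IM and 876, 1144 and 1164 in injIM, means of 2181 ± 296 and 1061 ± 161 that differed 2.05-fold. In recNAM it read 937, 353 and 957, in sNAM 0, 4302 and 142, and in injNAM 0, 253 and 51.4. The recNAM libraries of Cma1 lay within or below the injIM range, and replicate 2 of sNAM was the highest of all 15, as for Cpa3.

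Mcpt4, the other main chymase gene (chr14:56059744-56062310), read 2605, 1746 and 1899.9 in IM and 800.0, 635 and 796 in injIM. These means, 2084 ± 458 and 744 ± 94.5, differed 2.80-fold. It read 414, 481 and 842 in recNAM, 0, 4908 and 322 in sNAM, and 0, 0 and 206 in injNAM. Here too no injIM library reached the lowest IM library.

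The tryptase gene Tpsb2 (chr17:25366308-25368096) had the smallest fold of the set between the interstitial groups. It read 1040.5, 926 and 953 in IM and 455, 503 and 543 in injIM, means of 973 ± 59.9 and 500.2 ± 44.0 that differed 1.95-fold. In recNAM Tpsb2 read 229.7, 399 and 292, all below the injIM libraries. In sNAM it read 0, 4474 and 655, and in injNAM 0, 0 and 1046, so that 1 of the 3 injNAM libraries reached the IM range and the others held no read. Tpsb2 lies beside 2 further tryptase genes, Tpsab1 and Tpsg1, and reads of these similar sequences may be split between them.

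Hdc encodes histidine decarboxylase, the enzyme that makes histamine, and is also known in other myeloid cells (chr2:126593659-126624025). It read 2594, 2172 and 1752 in IM and 972, 643 and 803 in injIM, means of 2173 ± 421 and 806 ± 165 that differed 2.7-fold. In recNAM it read 973, 1164 and 1346, a mean of 1161 ± 186. These recNAM libraries all lay above the injIM libraries, the lowest by a margin of under 2 normalized counts, and Hdc was the 1 transcript of the set with that order. In sNAM Hdc read 0, 10931 and 738, the highest value of Hdc being again in replicate 2 of sNAM, and in injNAM it read 492, 0 and 1626.

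The receptor transcripts were lower per kb than the proteases in IM and injIM, and each was lower in injIM than in IM. Kit, the receptor for stem cell factor (chr5:75574987-75656722), read 589, 304 and 409 in IM and 159, 202 and 175 in injIM, means of 434 ± 144 and 179 ± 21.7 that differed 2.42-fold. It read 242, 151 and 155 in recNAM, which overlaps injIM. All sNAM values of Kit (2.89, 58.2 and 49.96) and all injNAM values (0, 0.981 and 0) lay below every interstitial library. Kit was in this way unlike the proteases, whose highest value was in replicate 2 of sNAM.

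Ms4a2 and Fcer1a encode the beta and alpha chains of the high-affinity IgE receptor. Ms4a2 (chr19:11615517-11623790) read 297, 228 and 284 in IM against 109, 31.6 and 12.1 in injIM, means of 269.9 ± 36.9 and 51.0 ± 51.4. Fcer1a (chr1:173221269-173227232) was low, at 63.3, 42.4 and 51.9 in IM against 19.7, 26.7 and 21.3 in injIM, means of 52.5 ± 10.5 and 22.6 ± 3.67. The ratio of means was 5.29 for Ms4a2 and 2.33 for Fcer1a. Both chains were patchy in the nerve-associated groups. Ms4a2 read 0, 0 and 61.1 in sNAM, 121, 0 and 0 in injNAM, and 42.0, 49.1 and 0 in recNAM. Fcer1a read 0, 451 and 27.8 in sNAM, 0 in each injNAM library, and 0, 73.3 and 0 in recNAM. The sNAM library with the most Fcer1a therefore had no read of Ms4a2.

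Mrgprb2, the receptor for cationic peptides (chr7:48550965-48558086), read 65.9, 47.5 and 68.3 in IM and 10.7, 29.9 and 0 in injIM, means of 60.6 ± 11.4 and 13.5 ± 15.2 that differed 4.47-fold. It had no read in any sNAM or injNAM library, and read 27.3, 0 and 0 in recNAM. A count of 0 allows up to 3 reads, which is 2.57 to 8.73 normalized counts per sNAM or injNAM library, for counting error only. Gata2, a transcription factor of mast cells and blood progenitors (chr6:88193891-88207032), had the largest ratio of means between the interstitial groups, 5.34. It read 512, 305 and 307 in IM and 91.2, 75.3 and 44.0 in injIM, means of 374 ± 119 and 70.2 ± 24.0. In recNAM it read 11.7, 113 and 24.2, in sNAM 0, 294 and 64.8, and in injNAM 14.96, 0 and 0.

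**Figure D1:**
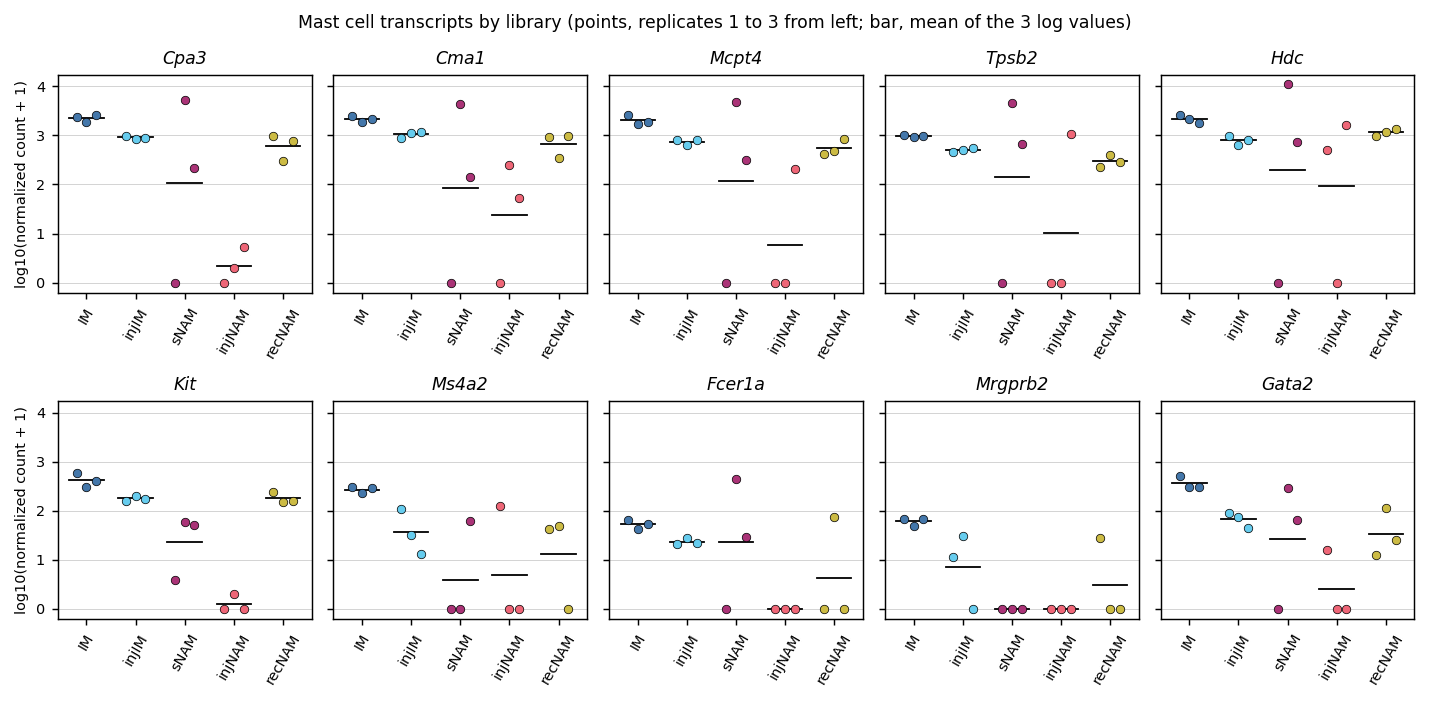
Levels of the 10 mast cell transcripts, 1 panel each, as log10(normalized count + 1) on the vertical axis for the 5 groups; points are libraries and bars the mean of the 3 log values. IM points lie above injIM points in each panel (Cpa3, 1879 to 2553 against 844 to 981), with wide injIM spread for Ms4a2 and Mrgprb2. For each protease, sNAM points run from 0 to the highest value of all libraries.

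Summed, the transcripts were lower in injIM than in IM. All 10 were lower in each injIM library than in each IM library, an order that 11.4% of the tested genes had; 13.5% had the opposite order. Since the set was proposed with this difference in view, nothing is read from that count. Of the 10, 7 passed the filter of a mean of 100 over the libraries, the exceptions being Ms4a2, Fcer1a and Mrgprb2. The sum of the 10 was 12596, 9529 and 10469.6 in IM and 4473, 4134 and 4464 in injIM, means of 10865 ± 1571 and 4357 ± 193. The sum in injIM was 0.401 of that in IM, and 0.422 in CPM. In the same comparison the median log2 difference over all tested genes was 0.03.

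Shares of the sum are shares of reads, to which longer transcripts give more. Within the sum, some transcripts kept their share between the interstitial groups and others did not. Cpa3 made up 20.9% ± 3.03 of the sum in IM and 20.9% ± 0.92 in injIM, Mcpt4 19.1% ± 1.42 and 17.0% ± 1.45, and Hdc 20.04% ± 3.07 and 18.4% ± 3.11. Cma1 stood at 20.1% ± 0.72 and 24.4% ± 4.29. Tpsb2 took a larger share in injIM, 10.2%, 12.2% and 12.2% against 8.26%, 9.72% and 9.11%, with no overlap. Gata2 took a smaller share in injIM, 1.62% ± 0.56 against 3.4% ± 0.59, and the shares of its libraries did not overlap.

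In recNAM the sum was 3862, 3080.1 and 4402, a mean of 3781 ± 665 that was 0.348 of IM and 0.301 of IM when Hdc was left out. Against injIM, 1 transcript was lower in every recNAM library (Tpsb2; 12.5% of tested genes) and 1 higher (Hdc; 11.4%). Hdc made up 31.2% ± 6.33 of the sum in recNAM. Against IM, 9 of the 10 were lower in every recNAM library, all except Fcer1a, beside 17.5% of tested genes, and none was higher in every one (18.1%). These counts lie in comparisons whose libraries were seen when the set was proposed.

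In the resident nerve-associated groups the sum was set by single libraries. In sNAM it was 2.89, 30743 and 2281, so that sNAM was 1.01 of IM with all 3 libraries and 0.105 without replicate 2. In injNAM it was 628, 255 and 2934. Reads of Kit were the whole sum in replicate 1 of sNAM, Hdc made up 78.3% in replicate 1 of injNAM, Cma1 99.2% in replicate 2, and Hdc and Tpsb2 55.4% and 35.6% in replicate 3. Against IM, 4 transcripts were lower in every sNAM library (Kit, Ms4a2, Mrgprb2 and Gata2), beside 18.4% of tested genes, and none was higher in every one, beside 9.57%. Without replicate 2 of sNAM all 10 were lower, beside 26.1% of tested genes, and none higher, beside 18.1%. Against injIM, 6 were lower in every injNAM library (Cpa3, Cma1, Mcpt4, Kit, Fcer1a and Gata2), beside 12.0%, and none higher, beside 8.92%. Between the resident groups, 1 was lower in every injNAM library than in every sNAM library (Kit), beside 4.69%, and none higher, beside 7.35%. Without replicate 2 of sNAM the count was again 1 lower (Kit; 10.4% of tested genes) and none higher (11.8%).

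**Figure D2:**
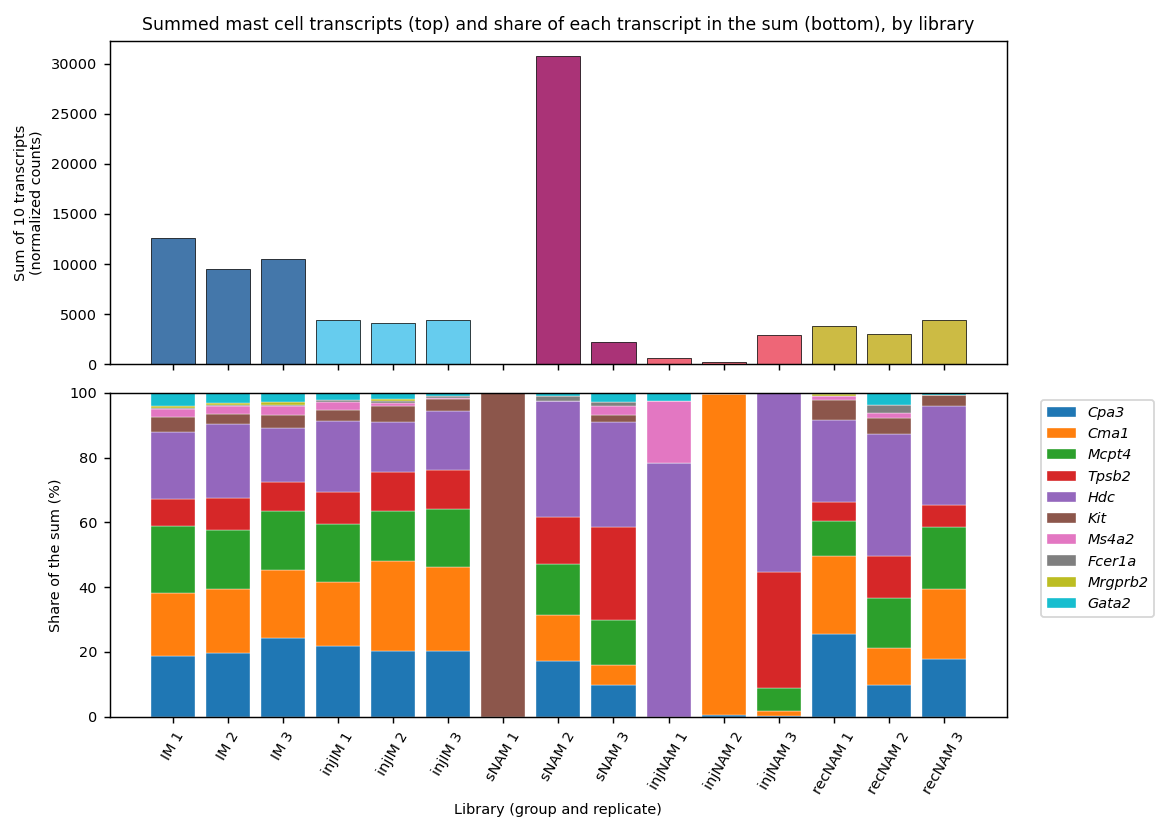
Sum of the 10 transcripts in normalized counts (top, bars from 0) and the share of each transcript in that sum in percent (bottom), for each of the 15 libraries. IM sums of 9529 to 12596 stand above injIM sums of 4134 to 4473 while replicate 2 of sNAM reaches 30743 and the other resident libraries run from 2.89 to 2934.

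Missing reads were uneven between abundant and rare transcripts. Replicate 1 of sNAM had no read of Cpa3, Cma1, Mcpt4 or Hdc. Of genes with an IM mean within 1.5-fold of theirs, 0.58% to 0.70% had no read in that library. The genes were matched on IM level only, and the cause of the missing reads was not tested. For genes within 1.5-fold of Tpsb2, the share without a read was 3.65%. Rare transcripts differ: in replicate 2 of sNAM, where Ms4a2 had no read, 42.2% of 1836 genes at its IM level had none. Mrgprb2 had no read there either, and 43.8% of 372 genes near its IM mean of 60.6 had none. The genes compared were drawn from those that passed the filter, which Ms4a2 and Mrgprb2 did not. Those beside Mrgprb2 passed only through higher levels in groups other than IM, so nothing is read from their share. Kit was read in replicate 2 of sNAM at 0.134 of its IM mean, beside Cpa3 at 2.35, Tpsb2 at 4.60 and Hdc at 5.03 of theirs.

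On the per-kb scale, where levels of different genes can be set beside each other, the order in IM was Cma1 (2000 ± 271 normalized counts per kb of exon), Mcpt4 (1881 ± 414), Cpa3 (1492 ± 229), Tpsb2 (610.6 ± 37.6) and Hdc (340 ± 65.9). Neighbours among the first 3 overlapped, and Tpsb2 and Hdc each stood apart from the next. Ms4a2 (95.9), Gata2 (69.4), Fcer1a (52.6) and Kit (48.7) followed with overlapping libraries, and Mrgprb2 was lowest at 29.2. In injIM, Cma1 (974 ± 148) stood apart from Mcpt4 (671 ± 85.3), which overlapped Cpa3 (599.7 ± 45.1). Proteases thus outranked receptors in both interstitial groups.

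The chymase genes lie in 1 cluster on chromosome 14, and only part of it was read. Distances here run between the lowest coordinates of the genes, which for Cma1 and Mcpt4, on the minus strand, are not the start sites. Mcpt4 lies 118.3 kb from Cma1. Between them lie Mcpt1, Mcpt2 and Mcpt9, proteases of other mast cell types, at 76.5, 80.1 and 85.4 kb from Cma1. None of these had a read in any of the 15 libraries. Cma2, at 9.53 kb, had 23 reads in all, and the basophil protease gene Mcpt8, at 140.7 kb, had 7. Ctsg, the cathepsin G gene at the far end (158.4 kb), read 58.3, 85.5 and 82.1 in IM and 10.7, 28.3 and 19.7 in injIM, an order like that of Cma1 and Mcpt4 at a lower level. The 2 chymases of connective tissue mast cells were therefore the ones present in quantity.

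**Figure D3:**
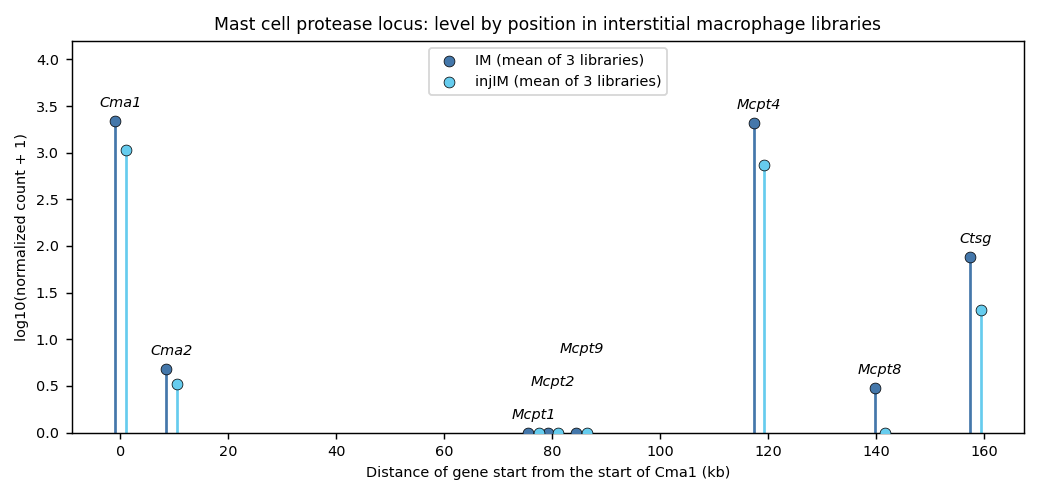
Mean level of the protease genes of the cluster in IM and injIM (n = 3 libraries each), as log10(normalized count + 1), against distance from Cma1 in kb. Gene start on the axis means the lowest coordinate of a gene, not its start site. Cma1 and Mcpt4 are high at either side of Mcpt1, Mcpt2 and Mcpt9, which had 0 reads, and Ctsg is intermediate.

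Genes of the mast cell programme outside the set were then tested, as a list of 22 companion genes (other granule proteases, amine handling, receptors, transcription factors and transport genes) of which 7 passed the filter. They come from the same libraries as the set, so they are not independent of it. In injIM against IM, 3 of the 7 fell (limma adjusted p under 0.05), beside 4.03% of all tested genes called lower, and none rose, beside 4.15%. The median log2 difference of the 7 was -0.66. In 11 of the 22 companions, and 5 of the 7 tested, all injIM libraries lay below all IM libraries, beside 11.4% of tested genes. Without the filter on low values none of these 3 kept its call, and Rab27b and Tal1 were called instead. Where edgeR's quasi-likelihood test or DESeq2 was run on the recovered reads, 0 of the 7 were called, as with limma at 1 pooled spread, beside 4, 64 and 18 of all genes.

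Cyp11a1, which encodes the enzyme that starts steroid synthesis, read 690.0, 489.5 and 488 in IM and 103, 180.5 and 172 in injIM. It fell by 1.38 on the log2(value + 100) scale (SE 0.23, limma adjusted p = 0.000568). Mrgprb1, of the same receptor family as Mrgprb2, read 1083, 454 and 468 in IM and 121, 232 and 115 in injIM, and fell by 1.52 (SE 0.31, adjusted p = 0.00409). The groups of both genes were fully separate. Tpsab1, a tryptase gene that RefSeq lists as a transcribed pseudogene, read 586, 417 and 335 against 201, 183 and 118 and fell by 1.02 (SE 0.25, adjusted p = 0.0142). Its reads may be shared with those of Tpsb2.

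The other 4 tested companions were not called. Slc45a3, a sugar transporter gene, differed by -0.66 (adjusted p = 0.0806), and Slc18a2, which encodes the vesicle transporter that loads histamine, by -0.58 (adjusted p = 0.254). Il1rl1, the receptor for IL-33, differed by -0.01 (adjusted p = 0.988). Ndst2, which modifies heparin and was the most abundant companion, read 1163, 1218 and 1210.2 in IM and 1161, 1239.9 and 875 in injIM, a log2 difference of -0.13 (adjusted p = 0.781). Ndst2 and Il1rl1 are also made by cells other than mast cells.

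In recNAM against injIM, 1 of 7 companions fell, beside 4.34% of all tested genes. This was Slc45a3, at 229.7, 60.8 and 35.9 against 251, 286 and 424, a log2 difference of -1.10 (SE 0.28, limma adjusted p = 0.0171). Its call was lost without recNAM replicate 2 or without recNAM replicate 3, with edgeR and DESeq2, at 1 pooled spread, with a pseudocount of 1, and without the filter, where Cd200r3 was called instead. No companion rose there, beside 3.19%. In sNAM against IM 0 of 7 were called by limma (1 at an unadjusted p under 0.05), beside 0.508% of tested genes lower and 0.543% higher. In injNAM against injIM 0 were called (1 unadjusted), beside 0.243% in each direction, and in injNAM against sNAM 0 (0 unadjusted), beside 0.0%. DESeq2 called 2 in each of the last pair, Mrgprb1 and Slc45a3.

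In replicate 2 of sNAM the companions were uneven too. Mrgprb1 read 2841, Slc18a2 2189 and Cyp11a1 1749.5 there, above every IM library, while Rab27b, Tph1 and Tal1 had no read. These 6 were picked after their values were seen.

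**Figure D4:**
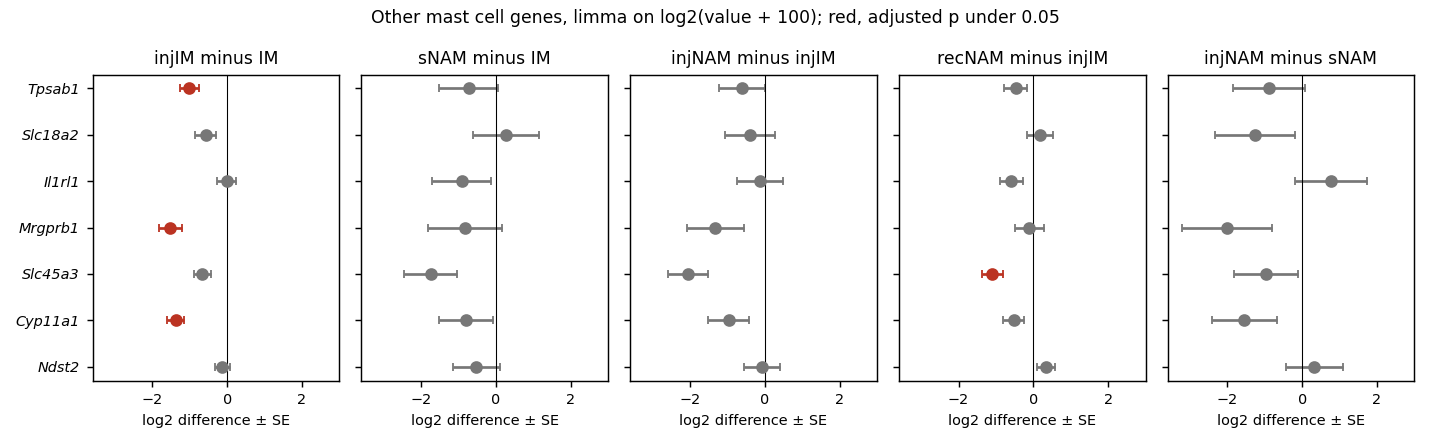
Log2 differences (± SE) of the 7 tested companion genes on the log2(value + 100) scale in 5 comparisons, from limma over all 15 libraries; red points passed an adjusted p under 0.05. Error bars are short for injIM minus IM, where Tpsab1, Mrgprb1 and Cyp11a1 passed, and long wherever sNAM or injNAM enters.

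A second list held 17 genes that mast cells use but share with macrophages and other myeloid cells, in granule packing, eicosanoid synthesis and signalling below the IgE receptor, and 16 of these were tested. In injIM against IM, 2 fell, beside 4.03% of tested genes, and 2 rose, beside 4.15%, and the median log2 difference of the 16 was -0.13. Hpgds, the prostaglandin D2 synthase gene, fell from 4189.8 ± 888 to 2323 ± 171 (log2 difference -0.81, limma adjusted p = 0.00223). Alox5, the 5-lipoxygenase gene of leukotriene synthesis, fell from 2252 ± 265 to 1232 ± 435 (-0.87, adjusted p = 0.0106). The kinase gene Syk rose from 4518 ± 222 to 6673 ± 878 (0.55, adjusted p = 0.00360), and the adaptor gene Lat2 from 2404 ± 67.6 to 3434 ± 98.8 (0.50, adjusted p = 0.00857). The called lipid mediator enzymes and the called signalling genes moved in opposite directions, but neither role moved as a whole. Of the eicosanoid genes not called, Ltc4s and Alox5ap differed by -0.52 and -0.06, and Ptgs1 and Ptgs2 by 0.26 and 0.48. Of the tested signalling genes not called, Fcer1g, Lyn, Btk and Plcg1 differed by -0.18, -0.13, -0.04 and -0.15, and Plcg2 by 0.63. With edgeR, DESeq2 or limma at 1 pooled spread, 0 of the 16 were called in this comparison. Without the filter only Syk was called, and without IM replicate 3 the call of Alox5 was lost.

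In recNAM against injIM 3 of the 16 rose, beside 3.19% of tested genes, and none fell, beside 4.34%. Srgn, the core protein of granule proteoglycans, rose from 4815 ± 1293 to 10189.7 ± 2502 (log2 difference 1.08, limma adjusted p = 0.00188). Ptgs1, a cyclooxygenase gene, rose from 131 ± 35.8 to 603 ± 254 (1.55, adjusted p = 0.00459), and the kinase gene Lyn from 6986 ± 209 to 10922 ± 1766 (0.63, adjusted p = 0.00812). With edgeR or at 1 pooled spread 0 of the 16 were called, and with DESeq2 or without the filter 1, Srgn. Without recNAM replicate 1 or with a pseudocount of 1, the call of Ptgs1 was lost. The highest levels of the list belonged to Cd63, a tetraspanin of granule membranes, and Fcer1g, the Fc receptor gamma chain, with IM means of 26758 ± 4159 and 21771 ± 2392. Neither was called by limma in any of the 5 comparisons. The main fit, limma with group weights and no replicate block, called no gene of the list in 3 comparisons. These were sNAM against IM, injNAM against injIM and injNAM against sNAM, with 2, 2 and 1 at an unadjusted p under 0.05. DESeq2 called 3, 1 and 3 of the 16 there. Srgn was called in all 3 by limma at 1 pooled spread, and in sNAM against IM also by edgeR. With a replicate block, limma called Srgn in sNAM against IM and in injNAM against injIM.

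Markers of other cells were summed in CPM beside the set, whose sum was 548 to 714 CPM in IM and 250.4 to 268 in injIM. Basophil markers stood at 8.002 to 9.68 CPM in IM and 2.03 to 4.46 in injIM. The defining proteases of basophils were at or near 0: Prss34 had no read in any library and Mcpt8 had reads in 1. The remaining basophil markers, Itga2, Cd200r3 and Il4, were read in IM, with means of 65.7, 51.8 and 32.4 normalized counts. Each was lower in every injIM library than in every IM library (means of 16.5, 27.2 and 9.24). Cd200r3 is also on the companion list. In replicate 2 of sNAM the basophil sum was 57.7 CPM, from Il4 alone (946 normalized counts), a cytokine that mast cells make too. Eosinophil markers summed to 8.45 to 11.4 CPM in IM and 12.9 to 25.1 in injIM, but single markers differed. Ccr3 was higher in each injIM library (means of 224 and 69.5 normalized counts), Siglecf was lower in each (2.53 against 16.9), and Ear1 had no read and Epx reads in 1 library. Melanocytes also use KIT, but their markers summed to at most 6.16 CPM in any library. Dendritic cell markers were lower in injIM (96.0 to 257 CPM) than in most IM libraries (252 to 615), and fibroblast markers overlapped (254 to 439 against 277 to 1048). Macrophage markers were 17934 to 18561 CPM in IM and 15978 to 16120 in injIM. The part of these cells in the result was not tested.

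In sNAM, the library richest in mast cell transcripts was the one poorest in T and NK cell transcripts, an order that injNAM did not have. T and NK cell markers summed to 196.7, 3.37 and 420.4 CPM in sNAM and 507, 13.7 and 471 in injNAM, against at most 9.65 in any other library. The mast cell sum was 0.161, 1874 and 136 CPM in the same sNAM libraries and 38.0, 15.4 and 176 in injNAM.

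Genes of mast cell growth factors and activating cytokines differed among themselves. The gene of stem cell factor, Kitl, read 126, 97.2 and 120.2 in IM and 71.5, 46.1 and 7.59 in injIM, and Il9 had no read in any library. Il33 went the other way, with 9.29, 0 and 4.32 in IM, 37.8, 38.8 and 6.83 in injIM, and 65.4, 248 and 6.60 in recNAM, groups that overlap. Tslp had the highest mean of the 6 in IM, 258 ± 90.2, against 154 ± 59.2 in injIM. The 6 ligand genes of the list summed to 20.8 to 27.8 CPM in IM and 10.8 to 16.8 in injIM.

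Across libraries the 10 transcripts followed each other to unequal degrees. On the log2(value + 100) scale, the 45 pairs had Pearson correlations with a median of 0.70 (0.05 to 0.96) over the 15 libraries and of 0.79 (0.14 to 0.97) over the 9 libraries of IM, injIM and recNAM. The weakest pairs were Ms4a2 with Fcer1a over the 15 libraries and Cma1 with Fcer1a over the 9. These libraries share groups, mice and scaling, so the values are a description. The genes whose pattern was most like that of the summed set over 15 libraries were Mcpt4 (r = 0.944) and Hdc (0.940), both of the set, then Sc5d (0.925) and Capn1 (0.904), and the gene at rank 15 still had r = 0.865. Over the 9 libraries the closest were Tmbim1 (0.984), Rtn1 (0.979) and Tuba1a (0.978), with Mcpt4 at rank 5 (0.973) and the companion Cyp11a1 at rank 9 (0.971). Over the 9 libraries some genes of no mast cell list were thus closer to the sum than every member that passed the filter. Over the 15 libraries such genes ranked among the members, below Mcpt4 and Hdc. Each member is part of the sum, so its own r is partly built in.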

How the data were processed

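Ear skin macrophages were profiled in 15 RNA-seq libraries. Per the labels' protocols, cDNA came from 250 pg of RNA and 13 PCR cycles; they name no molecular identifiers, so intervals and floors cover counting error of amplified reads only. The submitters' processing notes name STAR 2.7.2b, bcl2fastq 2.18, cutadapt, DESeq2 1.24.0, R 3.6.1 and the build mm10; how reads were counted, over which annotation and with which strand setting, the sources used here do not say. The authors deposited a normalized signal per gene, in which each library's reads share a single divisor. Dividing by the smallest value of a library recovered its reads, 100% of them whole within 0.01. No 2 libraries of a group agreed within sampling noise (lowest chi-square per degree of freedom 32.17).

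Genes with a mean of at least 100 (8656) were tested with limma 3.58.1 (R 4.3.3) on log2(value + 100), with group means and array weights shared within a group (3.43 for IM, 3.21 for injIM, 0.175 for sNAM, 0.311 for injNAM, 1.67 for recNAM) over all 15 libraries and Benjamini-Hochberg adjustment over all tested genes, called at 0.05. The fit was tested on simulated data in which 100 genes were changed by a log2 of 1.5 and 100 by 3. Each gene was drawn around its mean over the 15 libraries, with 1 spread per group that all genes shared. Real genes differ in spread, so recovery and false calls in the data may differ from those simulated. In injIM against IM and recNAM against injIM it recovered 100 and 99 at 1.5, with 14 and 9 false calls. It recovered 14 in sNAM against IM, 49 in injNAM against injIM and 6 in injNAM against sNAM. At 3 these became 89, 100 and 67, beside 41, 23 and 7 false calls. Comparisons with sNAM or injNAM thus had limited power, and 0 calls there do not show that genes were alike. In sNAM against IM and injNAM against injIM the false calls also made up a larger share of all calls than 0.05. Calls in these comparisons were therefore not held to that level in the simulated data. The pseudocount adds to every value, so differences of low genes are understated. Alternatives were other pseudocounts, no filter, 1 pooled spread, a replicate block, leaving out libraries, and edgeR 4.0.16 and DESeq2 1.42.0 on the recovered reads. Levels per kb used the union of exons. All 10 members were named, with list genes that were called and the 3 most abundant of each list; the remaining tested companions, the neighbours in the chymase cluster and single markers of other lists were named in addition. The members, lists, filter and weights were chosen with earlier results of these data known. P-values measure the spread between libraries of 3 mice.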

Additional observations from a re-analysis of the deposited data

How the results depend on the processing

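The ratio of the summed set between injIM and IM, 0.401, lay at 0.397 to 0.422 under other scalings, 0.409 without Hdc and 0.378 to 0.436 when 1 library was left out; by geometric means it was 0.340. For sNAM over IM the ratio of 1.01 ran from 0.105 (without sNAM replicate 2) to 1.52, with 0.417 by geometric means, 0.819 without Hdc, 0.918 with TMM scaling and 1.09 in CPM. The 3 companions called in injIM against IM became 0 with 1 pooled spread, edgeR (TMM or deposited factors) or DESeq2, 2 with a pseudocount of 10 or 1 (Tpsab1 lost), 2 others without the filter (Rab27b and Tal1, none of the 3), and 2 to 4 when 1 library was left out. In recNAM against injIM the 1 call became 0 with pooled spread, a pseudocount of 1, edgeR or DESeq2, and 0 to 1 when 1 library was left out. For sNAM against IM the 0 calls became 1 with pooled spread. In injNAM against injIM they became 1 with a pseudocount of 10 or 1 and 2 with DESeq2. In injNAM against sNAM they became 2 with edgeR or DESeq2. With 1 library left out all 3 stayed at 0 calls. Without the sNAM and injNAM libraries, an alternative chosen after seeing the data, limma called 3 companions in injIM against IM and 1 in recNAM against injIM. Counts over all genes often differed by more than 1.5 times between settings. In injIM against IM limma called 708 genes, pooled spread 18, no filter 315, edgeR 4 and DESeq2 64, with 399 to 827 when 1 library was left out. In sNAM against IM the 91 calls became 727 with pooled spread, 0 with a pseudocount of 10 or 1, 332 or 351 with edgeR (TMM or deposited factors), 923 with DESeq2 and 0 to 108 with a library left out. In injNAM against injIM the 42 became 69 (pooled spread), 53 (pseudocount 10), 67 (pseudocount 1), 102 (no filter) and 313 (DESeq2), with 2 to 75; the even split of 21 lower and 21 higher became 45 and 8 with a pseudocount of 10 and 62 and 5 with 1. In recNAM against injIM the 652 became 22 (pooled spread), 362 (no filter), 9 or 11 (edgeR) and 121 (DESeq2), with 272 to 898. In injNAM against sNAM the 0 became 363 (pooled spread), 4 (no filter), 135 or 146 (edgeR) and 723 (DESeq2). The cause was not tested. The groups share replicate numbers in the labels, and whether the numbers pair the libraries was not settled. Deviations from group means correlated at a median of 0.06 (-0.02 to 0.39) for 30 pairs with the same number and -0.04 for 60 others. Correlations over 0.1 were found in 9 of the 30 and 3 of the 60. Of the 15 libraries, 12 correlated best with a library of their own number. The main fit held no replicate block, so its p-values take no account of shared mice. A replicate block left the companion counts at 3, 0, 0, 1 and 0 and gave 928, 100, 70, 1211 and 0 calls over all genes, in the order injIM against IM, sNAM against IM, injNAM against injIM, recNAM against injIM and injNAM against sNAM.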
